A study of Homo sapiens with 8 samples.

Results

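The serum- and glucocorticoid-regulated kinases SGK1, SGK2 and SGK3 were followed together with 7 genes known to act with them, namely NEDD4, NEDD4L, PDPK1, SCNN1A, FOXO3, FKBP5 and TSC22D3. The members were taken by gene symbol, 10 of the 25192 genes listed for each library. SGK1 was picked because it lay lower after PrxII depletion in HT29 cells and higher in SW480 cells. Its values are therefore a description here and carry no test. The other 9 genes were chosen for their known roles, at a time when earlier results of these data were known.

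HT29 and SW480 are human colorectal cancer cell lines that carry truncated APC, an inhibitor of Wnt signalling. Each line was transfected either with a control siRNA (siCon) or with an siRNA against PRDX2 (siPrdx2), the gene of the peroxide-removing enzyme peroxiredoxin II (PrxII), and total RNA was taken after 36 h. Each of the 4 groups held 2 libraries of poly(A) mRNA, 8 in all. No genotype differed between the groups of a line and no other agent was named. HT29 cells were grown in McCoy's 5A medium and SW480 cells in RPMI medium, so that line and medium cannot be told apart. The study speaks of duplicate experiments, but does not say whether these were separate transfections or which PRDX2 siRNA was sequenced, so the p-values measure the spread between these libraries, which may be technical.

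SGK kinases are relatives of AKT. They are switched on by mTORC2 and by PDPK1, which phosphorylates the activation loop. SGK1 itself is known as a gene that glucocorticoids, mineralocorticoids and serum raise quickly. Active SGK1 phosphorylates the ubiquitin ligase NEDD4L, which then no longer removes the epithelial sodium channel ENaC, whose alpha subunit is encoded by SCNN1A, from the cell surface. It also phosphorylates the transcription factor FOXO3, which is then held outside the nucleus. FKBP5, a co-chaperone of the glucocorticoid receptor, and TSC22D3, the leucine zipper protein GILZ, are commonly used readouts of glucocorticoid action, and TSC22D3 is also known as a FOXO target.

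One promoter window of SGK1 (of 3 in the annotation) and one of TSC22D3 (of 4) are shown because these 2 genes had the largest differences with siPrdx2 in HT29 cells among the members and moved in opposite directions there. Each sequence holds 300 bases around a transcription start, most of them upstream of it, 5′ to 3′, from the RefSeq annotation of GRCh38.p14. SGK1 is shown at chr6:134174817-134175116 (minus strand) and TSC22D3 at chrX:107717013-107717312 (minus strand), with the only motif match in capitals.
SGK1: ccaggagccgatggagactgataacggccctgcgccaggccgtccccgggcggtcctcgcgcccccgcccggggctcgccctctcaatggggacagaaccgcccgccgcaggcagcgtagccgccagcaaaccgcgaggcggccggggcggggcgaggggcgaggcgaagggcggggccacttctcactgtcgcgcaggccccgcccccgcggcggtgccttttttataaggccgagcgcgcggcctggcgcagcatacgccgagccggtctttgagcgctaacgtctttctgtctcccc
TSC22D3: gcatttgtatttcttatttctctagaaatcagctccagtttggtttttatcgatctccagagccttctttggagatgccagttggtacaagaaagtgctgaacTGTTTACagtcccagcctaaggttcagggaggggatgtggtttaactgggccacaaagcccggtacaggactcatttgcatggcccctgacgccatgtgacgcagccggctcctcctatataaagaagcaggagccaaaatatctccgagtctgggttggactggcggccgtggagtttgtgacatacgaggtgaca

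The windows available for 7 of the 10 members, 22 in all, were searched on both strands for the FOXO letters TGTTTAC, the TCF/LEF letters CTTTGAT and a palindromic glucocorticoid receptor motif. The FOXO letters were found in 1 of the 22 windows, that of TSC22D3, starting at position -147 from the start site. Across all 35116 promoter windows of this length, 3.42% held the FOXO letters, 2.62% the TCF/LEF letters and 0.39% the glucocorticoid receptor motif. The match is a description of the sequence and says nothing of binding.

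The libraries held between 8857442 and 10164137 expected counts, and on the scale of CPM (each count divided by its library total with TMM scaling) a count of 3 equals 0.293 to 0.347. The duplicates of HT29 differed little from each other, with a chi-square of 1.43 (siCon) and 1.71 (siPrdx2) per degree of freedom over genes. In SW480 it was 2.13 for siPrdx2 but 11.2 for siCon, and the difference between the SW480 siCon duplicates followed transcript GC content (Spearman correlation of 0.684 across genes, against 0.124 to 0.182 in the other groups). A correction for GC content and fits without each of these libraries were therefore run (not for sums of genes). Their values stand beside a result where they change the call or move a called value by over 1.5 times. For counts over lists of related genes, fits that left out a library are not given. PRDX2 (chr19:12907634-12912614, GRCh37) was at 148 and 154 CPM with siCon and at 82.4 and 83.2 CPM with siPrdx2 in HT29, which left 0.549 of the control level. In SW480 it was at 209 and 246 CPM with siCon and at 69.5 and 70.7 CPM with siPrdx2, which left 0.308, and its log2 fold change of -1.70 was -1.85 with the GC correction. All 7 markers of colorectal epithelium exceeded 1 TPM (the length-scaled level that RSEM gives) in at least 1 library of each line, but KRT20 was at 546 to 770 TPM in HT29 and at 0.79 to 1.34 TPM in SW480. VIM, a mesenchymal marker, was at 0.11 to 0.56 TPM in HT29 and at 620 to 794 TPM in SW480. Of the 3 blood cell markers, PTPRC was at 0 and CD3E at most at 0.16 TPM, while CD14 was at 6.90 to 9.22 TPM in HT29 and at 2.94 to 5.72 TPM in SW480. Fewer cells of a type cannot be told apart from less RNA per cell in such libraries.

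SGK1 (chr6:134490386-134639250, GRCh37, minus strand) was measured at 97.9 and 94.7 CPM in the HT29 siCon libraries and at 70.5 and 67.9 CPM with siPrdx2. Both siPrdx2 libraries lay below both control libraries. The log2 fold change was -0.48 ± 0.05 (SE, n = 2 against 2). In SW480, SGK1 was at 71.2 and 64.6 CPM with siCon and at 109.9 and 109.8 CPM with siPrdx2, both above both controls. For SW480, the log2 fold change was 0.69 ± 0.11 (SE), and 0.85 with the GC correction. Without SW480 siCon replicate 1 it was 0.76, and without replicate 2 it was 0.62. The effect in HT29 minus that in SW480 was -1.17 ± 0.11 (SE) on the log2 scale. It lay between -1.32 and -1.11 under the alternatives. Since SGK1 was selected on these differences, they were not tested.

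**Figure D1:**
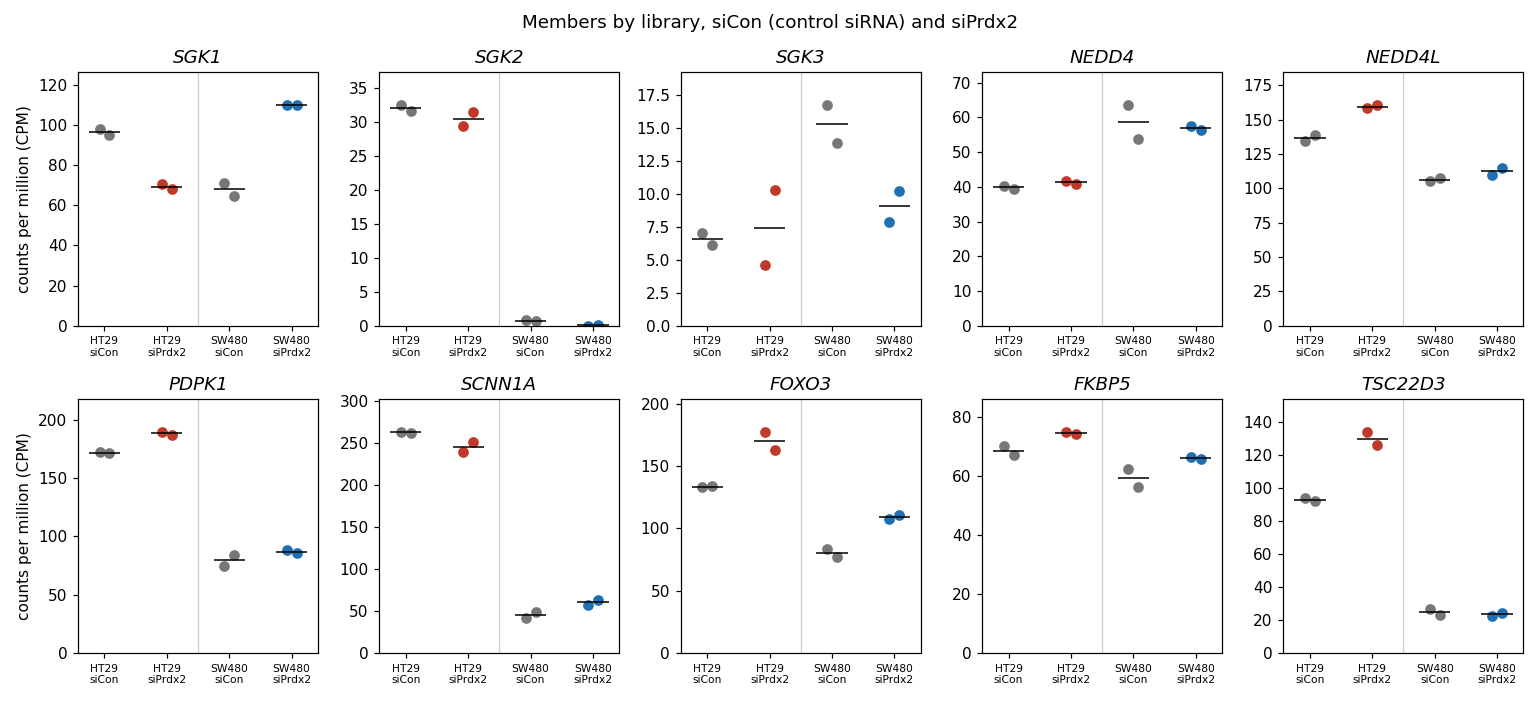
CPM (y axis, from 0) of the 10 members in each of the 8 libraries, grouped by line and siRNA on the x axis. Points are libraries and horizontal bars the mean of 2. SGK1 sits near 96 CPM in HT29 siCon and near 69 with siPrdx2, against 68 and 110 in SW480.

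SGK2 (chr20:42187608-42216877, GRCh37), whose expression is not known to follow serum or steroids as that of SGK1 does, passed the count filter in HT29 but not in SW480. It was at 32.5 and 31.6 CPM with siCon and at 29.5 and 31.5 CPM with siPrdx2 in HT29, with a log2 fold change of -0.07 (95% confidence interval -0.24 to 0.10, adjusted p = 0.589, edgeR). In SW480, it had 7 and 7 counts with siCon and 0 and 1 with siPrdx2. These numbers are near the floor of 3 counts, and SGK2 was not tested in the fit of the 4 SW480 libraries. The fit of all 8 libraries called it lower with siPrdx2 in SW480 (log2 fold change -3.62, adjusted p = 0.0113, edgeR). That call and the fitted difference between lines (adjusted p = 0.0567, edgeR, and 0.015 with the GC correction) rest on these few counts. Between the control libraries, SGK2 was higher in HT29 by 5.44 ± 0.23 (SE) on the log2 scale (adjusted p = 2.31e-07, edgeR).

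SGK3 (chr8:67624969-67774257, GRCh37), the member whose PX domain places it on endosomes, was the least abundant of the 3 kinases in HT29. Its siCon libraries were at 7.08 and 6.16 CPM, and its siPrdx2 libraries, at 4.58 and 10.3 CPM, lay on either side of them. The log2 fold change of 0.15 had a 95% confidence interval of -0.41 to 0.71 (adjusted p = 0.757, edgeR). It was -0.53 without siPrdx2 replicate 2 and 0.64 without siPrdx2 replicate 1. Of 15 settings there, including the main fit and the sum given below, 1 called it. In SW480, SGK3 was at 16.8 and 13.9 CPM with siCon and at 7.92 and 10.2 CPM with siPrdx2, a log2 fold change of -0.75 ± 0.20 (SE) that missed the threshold (adjusted p = 0.0724, edgeR). It passed with the GC correction (-0.54, adjusted p = 0.0453) and without SW480 siCon replicate 1 (-0.62, adjusted p = 0.00908) or replicate 2 (-0.89, adjusted p = 2.56e-05). SGK3 shares its exons with a readthrough gene, C8orf44-SGK3, to which RSEM gave 34.0 of the counts in HT29 siPrdx2 replicate 1 and 0 in replicate 2. Summed over both genes, the counts in HT29 were 69 and 61.2 with siCon and 80.7 and 98 with siPrdx2. The summed counts in SW480 were 163 and 161 with siCon and 117 and 134 with siPrdx2. On this sum, the log2 fold change was 0.43 (95% confidence interval 0.06 to 0.80, adjusted p = 0.106, edgeR) in HT29 and -0.49 (-0.87 to -0.11, adjusted p = 0.127) in SW480. For SGK3 alone, the difference between lines was 0.91 ± 0.42 (SE, adjusted p = 0.266), which passed without SW480 siCon replicate 2 (1.03, adjusted p = 0.0364). On the sum it was 0.93 (0.40 to 1.45, adjusted p = 0.0888).

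In TPM, which is scaled by transcript length and can be compared between genes, SGK1 made up 68.8% and 68.7% of the 3 kinases in the HT29 siCon libraries and 63.8% and 59.8% with siPrdx2. SGK2 was nearly all of the rest, with 28.4% and 28.8% in siCon and 33.9% and 35.0% in siPrdx2. In SW480, SGK1 was 87.1% and 88.1% with siCon and 96.1% and 94.9% with siPrdx2, and the remainder was mainly SGK3. The summed level of the 3 kinases was 128 and 124 TPM in HT29 siCon, 104 and 106 TPM in HT29 siPrdx2, 75.4 and 67.4 TPM in SW480 siCon, and 112 and 113 TPM in SW480 siPrdx2. With siPrdx2, the summed levels of the lines lay closer to each other than with siCon, although SGK2 was nearly absent from SW480. These shares include SGK1 and are given without a test.

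**Figure D2:**
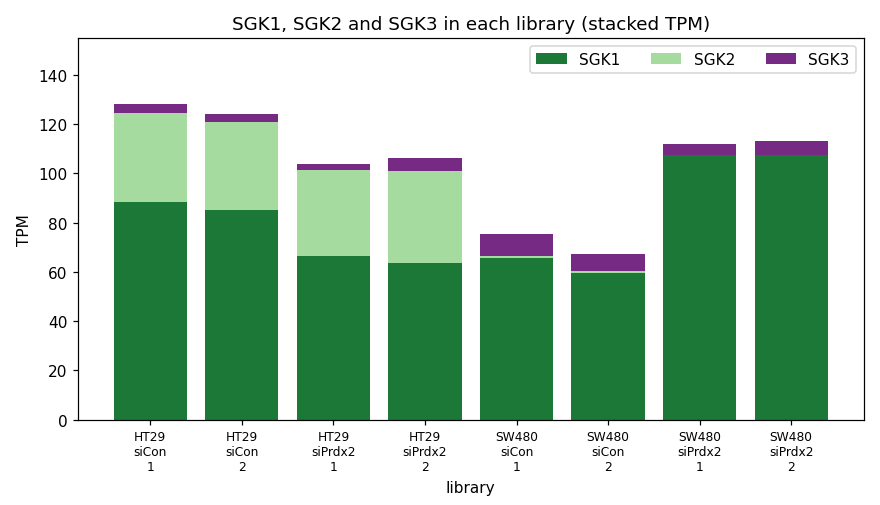
Stacked TPM of SGK1, SGK2 and SGK3 (y axis) in each of the 8 libraries (x axis). SGK2 fills 28.4% to 35.0% of the HT29 bars and at most 1.26% of the SW480 bars, where SGK1 makes up at least 87.1%.

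Of the 9 members other than SGK1, 4 rose in HT29 cells after PrxII depletion and none fell among those that passed the test. The share of all genes called in HT29 was 17.6%, and 7.76% were called higher with siPrdx2. The median log2 fold change of the 9 was 0.13, against -0.00 over all genes tested. In SW480, 0 of the 8 members tested passed the test with edgeR, 3 had an unadjusted p under 0.05, DESeq2 called 1 and limma called 0, against 3.3% of all genes. Between the lines, 0 of 9 effects differed with edgeR, 3 had an unadjusted p under 0.05, DESeq2 called 1 and limma 0, against 1.12% of all genes. Without SW480 siCon replicate 1 or replicate 2, and with the spread then taken from the libraries that remained, 4 members were called in SW480 in either case, but so were 24.6% and 52.8% of all genes. The GC correction called 3 members in SW480, against 16.9% of all genes.

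**Figure D3:**
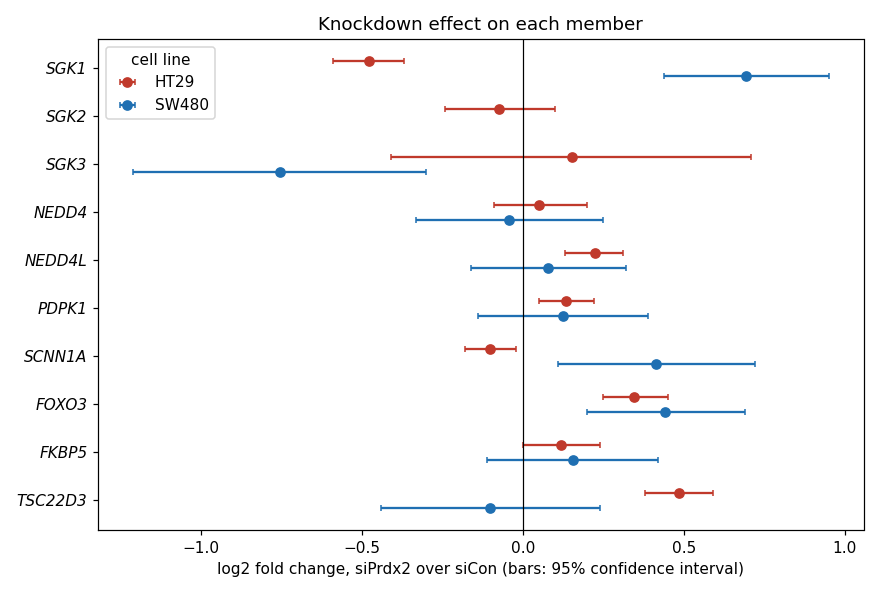
Log2 fold change of siPrdx2 over siCon (x axis) for each member (y axis) in HT29 (red) and SW480 (blue), with 95% confidence intervals as bars. TSC22D3, FOXO3 and NEDD4L lie above 0 in HT29 with narrow intervals, FOXO3 has nearly the same position in both lines, and SGK2 has no SW480 value because it did not pass the count filter there.

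PDPK1 (chr16:2587980-2653189, GRCh37), the kinase upstream of all 3 SGKs, was at 172 and 171 CPM with siCon and at 189 and 187 CPM with siPrdx2 in HT29. Both treated libraries lay above the controls, by 0.13 ± 0.04 (SE) on the log2 scale (adjusted p = 0.0285, edgeR). This call was lost with DESeq2 (adjusted p = 0.124), in the fit of all 8 libraries (adjusted p = 0.499) and without any 1 of the 4 HT29 libraries (adjusted p between 0.0578 and 0.104). In SW480, PDPK1 was at 74.4 and 84.4 CPM with siCon and at 88.0 and 85.3 CPM with siPrdx2, with a log2 fold change of 0.13 ± 0.12 (SE, adjusted p = 0.527, edgeR), which passed without SW480 siCon replicate 2 (0.21, adjusted p = 0.0054). The ratio of SGK1 to PDPK1 in TPM went from 1.72 and 1.68 to 1.13 and 1.08 in HT29 and from 2.91 and 2.33 to 3.77 and 3.81 in SW480. A closely related pseudogene, PDPK2P, was not analysed here, and its reads could in part be counted as PDPK1. Among 18 genes that act upstream of the SGKs (steroid receptors, phosphatidylinositol 3-kinase, its phosphatases, mTORC2 and AKT), 1 of 17 tested changed in HT29. It was PIK3R1, a regulatory subunit of phosphatidylinositol 3-kinase, with a log2 fold change of -0.13 ± 0.04 (SE, adjusted p = 0.0327, edgeR), against 17.6% of all genes. DESeq2 and the fit of all 8 libraries called 0 of this list, against 5.99% and 1.25% of all genes. The GC correction called 1 higher and 2 lower, against 21.3%. In SW480, 0 of 17 passed with edgeR (3 at an unadjusted p under 0.05), against 3.3% of all genes, and 1 passed with DESeq2, against 3.63%. The GC correction called 2 higher and 1 lower there, against 16.9% of all genes. The median of the list was -0.04 in HT29 and 0.10 in SW480, against -0.00 and 0.00 over all genes.

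NEDD4L (chr18:55711458-56068772, GRCh37), the ubiquitin ligase that SGK1 restrains, rose in HT29 from 135 and 139 CPM to 158 and 161 CPM. The rise was 0.22 ± 0.04 on the log2 scale (SE, adjusted p = 0.00163, edgeR), and the groups did not overlap. The fit of all 8 libraries did not call it (adjusted p = 0.171). In SW480, NEDD4L was at 105 and 107 CPM with siCon and at 109.9 and 115 CPM with siPrdx2, a log2 fold change of 0.08 with a 95% confidence interval of -0.16 to 0.32 (adjusted p = 0.662, edgeR). The difference of the effect between lines was 0.15 (95% confidence interval -0.07 to 0.36, adjusted p = 0.438), so a larger effect in HT29 was not shown.

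NEDD4 (chr15:56119120-56285858, GRCh37), the founding member of this ligase family, was at 40.2 and 39.4 CPM with siCon and at 41.7 and 40.8 CPM with siPrdx2 in HT29. NEDD4 showed a log2 fold change of 0.05 there (95% confidence interval -0.09 to 0.20, adjusted p = 0.684, edgeR). In SW480, the siPrdx2 libraries at 57.7 and 56.3 CPM lay between the controls at 63.6 and 53.7 CPM, with a log2 fold change of -0.04 (95% confidence interval -0.33 to 0.25, adjusted p = 0.872) that was 0.18 with the GC correction. In TPM, NEDD4L exceeded NEDD4 by a ratio of 2.32 and 2.42 in HT29 siCon and 2.62 and 2.73 in HT29 siPrdx2, against 1.14 to 1.40 in SW480. Of 10 other ligases and adaptors tested in HT29, 3 rose and none fell. ITCH rose by 0.21 ± 0.04, WWP2 by 0.18 ± 0.05 and SMURF1 by 0.16 ± 0.05 on the log2 scale (SE, adjusted p between 0.00339 and 0.0351, edgeR). Related ligases did not pass, with WWP1 at -0.05 ± 0.05 and SMURF2 at -0.11 ± 0.09 (SE). Across all genes, 17.6% were called in HT29 with edgeR. DESeq2 called 1 of this list, against 5.99% of all genes, and the fit of all 8 libraries called 0, against 1.25%. In SW480, 1 of 11 tested changed, against 3.3% of all genes. It was SMURF2, with a log2 fold change of -0.68 ± 0.12 (SE, adjusted p = 0.0251, edgeR). The GC correction gave 4 higher and 1 lower there, against 16.9% of all genes. Without SW480 siCon replicate 1 or 2, the log2 fold change of SMURF2 was -0.56 or -0.79. The list's median was 0.02 in HT29 and 0.01 in SW480.

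SCNN1A (chr12:6456009-6486896, GRCh37), the alpha subunit of ENaC, was at 263 and 262 CPM with siCon and at 239.6 and 251 CPM with siPrdx2 in HT29. Both treated libraries lay below the controls, but the log2 fold change of -0.10 ± 0.04 (SE) did not pass the test (adjusted p = 0.0691, edgeR). In SW480, SCNN1A was at 41.3 and 49.2 CPM with siCon and at 56.9 and 63.7 CPM with siPrdx2, a log2 fold change of 0.41 ± 0.14 (SE, adjusted p = 0.117, edgeR). It was 0.25 with the GC correction (adjusted p = 0.0532), 0.29 without SW480 siCon replicate 1 (adjusted p = 0.00444) and 0.54 without replicate 2 (adjusted p = 5.90e-07). The effect in HT29 minus that in SW480 was -0.51 ± 0.13 (SE, adjusted p = 0.0859, edgeR). DESeq2 gave -0.51 with an adjusted p of 0.0333 and the GC correction -0.33 with an adjusted p of 0.0254. Of the other ENaC subunits, SCNN1B and SCNN1G were between 0 and 3 counts in every library, at or under the floor of 3 counts. SCNN1D, the delta subunit, had 4 to 15 counts in HT29. In SW480, SCNN1D had 17 and 41 counts with siCon and 51 and 52 with siPrdx2, a log2 fold change of 0.71 ± 0.33 (SE, adjusted p = 0.227, edgeR). This value depended on the control library, at 0.26 without SW480 siCon replicate 1 and 1.41 without replicate 2, and was 0.41 with the GC correction.

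Among 14 further genes linked to SGK1, of channels, transporters and proteins that act with them, 3 of 9 tested fell in HT29 and none rose. ATP1B1 fell from 388 and 369 CPM to 322 and 309.7 CPM, a log2 fold change of -0.26 ± 0.03 (SE, adjusted p = 3.17e-05, edgeR). The chloride channel gene CFTR changed by -0.12 ± 0.03 (SE, adjusted p = 0.0151). Across all genes, 17.6% were called in HT29 with edgeR. DESeq2 called 2 of this list, against 5.99% of all genes, and the fit of all 8 libraries called 0, against 1.25%. In SW480, 2 of 8 tested rose and none fell, against 3.3% of all genes called. SLC9A3, the sodium-proton exchanger NHE3 whose activity SGK1 is known to raise, went from 20.6 and 30.8 CPM to 58.0 and 58.4 CPM, a log2 fold change of 1.18 ± 0.18 (SE, adjusted p = 0.0141, edgeR). The creatine transporter gene SLC6A8 rose by 0.67 ± 0.15 (SE, adjusted p = 0.0442), and by 0.40 with the GC correction (adjusted p = 0.00245). The GC correction also gave 2 rises and 0 falls in SW480, against 16.9% of all genes called. Without SW480 siCon replicate 1 or 2, the log2 fold change was 0.92 or 1.49 for SLC9A3 and 0.46 or 0.90 for SLC6A8. The medians of the list were -0.11 in HT29 and 0.53 in SW480, against -0.00 and 0.00 over all genes. Between the lines, 0 of 10 differed with edgeR (4 at an unadjusted p under 0.05), against 1.12% of all genes. DESeq2 called 1, against 1.55%, and the GC correction called 3, against 6.89%. In HT29, SLC9A3 had 7 to 9 counts in every library, and CFTR had 0 to 9 counts in SW480, so neither was tested in the other line.

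FOXO3 (chr6:108881038-109005977, GRCh37) lay higher with siPrdx2 in both lines. In HT29, it rose from 133 and 134 CPM to 177 and 163 CPM, a log2 fold change of 0.35 ± 0.05 (SE, adjusted p = 5.90e-05, edgeR). The fit of all 8 libraries left it at an adjusted p of 0.0545. In SW480, it was at 83.5 and 77.0 CPM with siCon and at 108 and 111 CPM with siPrdx2, again without overlap. The log2 fold change of 0.44 ± 0.11 (SE) missed the threshold (adjusted p = 0.0625, edgeR), while DESeq2 (0.44, adjusted p = 0.043), the fit of all 8 libraries (adjusted p = 0.00517) and the GC correction (0.45, adjusted p = 0.00194) called it. Without SW480 siCon replicate 1 it was 0.50 and without replicate 2 it was 0.38. Limma did not call FOXO3 in SW480. Of 15 settings there, including the main fit and the sum with FOXO3B given below, 7 called it. The effects differed by -0.10 with a 95% confidence interval of -0.33 to 0.15 (adjusted p = 0.667). FOXO3B, a near copy of FOXO3, held 28.5% to 45.5% as many counts as FOXO3, and RSEM had to divide reads between them. Summed over both, the log2 fold change was 0.32 (95% confidence interval 0.23 to 0.42, adjusted p = 6.11e-05, edgeR) in HT29 and 0.43 (0.19 to 0.66, adjusted p = 0.0587) in SW480.

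Of 14 other FOXO genes and known FOXO targets, 3 of 13 tested rose in HT29 and none fell. Of all genes there, 17.6% were called and 7.76% were called higher. TXNIP, which binds thioredoxin, rose from 513 and 515 CPM to 848 and 861 CPM, a log2 fold change of 0.73 ± 0.02 (SE, adjusted p = 8.75e-13, edgeR). GADD45A, a DNA damage response gene, rose by 0.41 ± 0.06 (SE, adjusted p = 1.09e-04), and FOXO4 by 0.25 ± 0.08 (SE, adjusted p = 0.0496). DESeq2 called 2 of this list, against 5.99% of all genes, and the fit of all 8 libraries called 2, against 1.25%. Against 3.3% of all genes, 1 of 14 tested changed in SW480. It was CCNG2, an atypical cyclin that FOXO factors are known to induce, which fell from 49.2 and 35.2 CPM to 19.3 and 19.5 CPM, a log2 fold change of -1.12 ± 0.18 (SE, adjusted p = 0.0171, edgeR). TXNIP in SW480 was at 167 and 136 CPM with siCon and at 179.6 and 180.1 CPM with siPrdx2. The list's median was 0.15 in HT29 and 0.10 in SW480. With the GC correction, 5 rose in HT29, against 21.3% of all genes called. In SW480 it gave 2 rises and 2 falls, against 16.9% of all genes. Without SW480 siCon replicate 1 or 2, the log2 fold change of CCNG2 was -0.86 or -1.35.

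TSC22D3 (chrX:106956451-107020572, GRCh37, minus strand), whose promoter is printed above, had the largest change of the tested members in HT29. It rose from 93.7 and 91.8 CPM to 134 and 126 CPM, a log2 fold change of 0.48 ± 0.05 (SE, adjusted p = 2.29e-06, edgeR). It was the only tested member called in HT29 in every alternative and without each library, FOXO3 and NEDD4L being lost in the fit of all 8 libraries. In SW480, it was at 26.9 and 23.3 CPM with siCon and at 22.5 and 24.3 CPM with siPrdx2, and the groups overlapped. The log2 fold change there was -0.10 (95% confidence interval -0.44 to 0.24, adjusted p = 0.704, edgeR). The effects differed by 0.59 ± 0.14 (SE), with an adjusted p of 0.0692 by edgeR, 0.053 by DESeq2 and 0.00769 with the GC correction. Without SW480 siCon replicate 1 the difference was 0.48 (adjusted p = 0.0202) and without replicate 2 it was 0.68 (adjusted p = 2.57e-04).

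FKBP5 (chr6:35541362-35696360, GRCh37) was at 70.1 and 67.3 CPM with siCon and at 74.9 and 74.4 CPM with siPrdx2 in HT29, a log2 fold change of 0.12 (95% confidence interval 0.00 to 0.24, adjusted p = 0.151, edgeR). In SW480, it was at 62.4 and 56.5 CPM with siCon and at 66.5 and 65.9 CPM with siPrdx2, a log2 fold change of 0.16 (95% confidence interval -0.11 to 0.42, adjusted p = 0.435) that reached 0.30 with the GC correction (adjusted p = 0.0148) and 0.23 without SW480 siCon replicate 1 (adjusted p = 0.0183). The ratio of TSC22D3 to FKBP5 in TPM was 2.64 and 2.64 in HT29 siCon and 3.52 and 3.35 in HT29 siPrdx2, against 0.857 and 0.826 in SW480 siCon and 0.674 and 0.743 in SW480 siPrdx2. Both siPrdx2 libraries had a higher ratio than both controls in HT29 and a lower one in SW480. The ratios were not tested, and in SW480 the 95% confidence intervals of both genes included 0.

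NR3C1, the gene of the glucocorticoid receptor, had 0, 0, 0 and 1 counts in the 4 HT29 libraries and 181 to 255 counts in SW480. NR3C2, the mineralocorticoid receptor gene, was at 77 to 86 counts in HT29 and at 0 to 5 counts in SW480. Of 10 further genes known to respond to glucocorticoids, 2 of 7 tested rose and 1 fell in HT29. Across all genes, 17.6% were called there and 7.76% were called higher. ERRFI1, a feedback inhibitor of the EGF receptor, rose from 372 and 364 CPM to 586 and 593 CPM, a log2 fold change of 0.68 ± 0.03 (SE, adjusted p = 1.13e-11, edgeR). DUSP1, a MAP kinase phosphatase, rose by 0.74 ± 0.12 (SE, adjusted p = 3.45e-04), and GLUL, glutamine synthetase, changed by -0.17 ± 0.04 (SE, adjusted p = 0.00332). In SW480, 0 of 8 passed with edgeR (1 at an unadjusted p under 0.05), against 3.3% of all genes. DESeq2 and the GC correction called 0, against 3.63% and 16.9%. ERRFI1 there was at 38.4 and 34.5 CPM with siCon and at 38.5 and 37.1 CPM with siPrdx2, and its effect differed between the lines by 0.63 ± 0.11 (SE, adjusted p = 0.0238, edgeR). Of the 70 genes of the 6 lists tested between the lines, it was the only one called with edgeR, against 1.12% of all genes. An unadjusted p under 0.05 was seen for 16 of the 70. DESeq2 called 4 of 77 tested, against 1.55% of all genes, and the GC correction called 10 of 70, against 6.89%. Of SGK substrates and the chaperones of the receptor, 4 of 9 fell in HT29 and none rose, with PTGES3 at -0.17 ± 0.03, FKBP4 at -0.18 ± 0.04, HSP90AA1 at -0.09 ± 0.02 and HSP90AB1 at -0.05 ± 0.02 on the log2 scale (SE, adjusted p between 4.91e-04 and 0.0483, edgeR). CDC37, a further chaperone partner, was at 0.01 ± 0.05 (SE, adjusted p = 0.951). Across all genes, 17.6% were called in HT29 with edgeR. DESeq2 called 2 of this list, against 5.99% of all genes, and the fit of all 8 libraries called 0, against 1.25%. In SW480, 0 of 9 passed with edgeR (1 at an unadjusted p under 0.05), against 3.3% of all genes. DESeq2 called 0, against 3.63%, and the GC correction called 1, against 16.9%. The median of the glucocorticoid list was 0.33 in HT29 and 0.07 in SW480, and that of the substrates and chaperones -0.05 and 0.03.

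Between the control libraries of the lines, all 9 members other than SGK1 differed, but so did 67.5% of all genes, and 31.8% were called higher in HT29. SCNN1A was higher in HT29 by 2.63 ± 0.12, TSC22D3 by 1.99 ± 0.13, PDPK1 by 1.21 ± 0.11 and FOXO3 by 0.84 ± 0.11 on the log2 scale (SE, adjusted p between 3.79e-07 and 1.55e-04, edgeR). NEDD4L was higher in HT29 by 0.46 ± 0.10 (SE, adjusted p = 0.00362) and FKBP5 by 0.31 ± 0.12 (SE, adjusted p = 0.0432, and 0.118 with DESeq2). The levels of SGK3 and NEDD4 were lower in HT29, with differences of -1.11 ± 0.20 (SE, adjusted p = 0.00114) and -0.46 ± 0.13 (SE, adjusted p = 0.0134). Without HT29 siCon replicate 1 or replicate 2, 5 of the 9 were called, with NEDD4, NEDD4L and FKBP5 no longer passing and SGK2 no longer tested. SGK1 was higher in HT29 by 0.60 ± 0.11 (SE), a value given without a test because the control libraries entered its selection. The GC correction raised the median difference of all genes from -0.04 to 0.30, and it turned the split of calls from 4559 higher and 5122 lower in HT29 to 7099 higher and 3992 lower. With it, all 9 members were still called, in the directions given above. It gave 1.28 for FOXO3, 0.86 for NEDD4L, 0.60 for FKBP5 and -0.21 for NEDD4, and FKBP5 was at 0.17 without SW480 siCon replicate 2. Of the genes in the 6 lists, 55 of 68 tested differed between the control libraries. Among the upstream genes 10 were higher and 5 lower in HT29, among the ligases 5 and 4, among the channels 7 and 3, among the FOXO genes and targets 7 and 4, among the glucocorticoid-responsive genes 2 and 2, and among the substrates and chaperones 3 and 3.

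**Figure D4:**
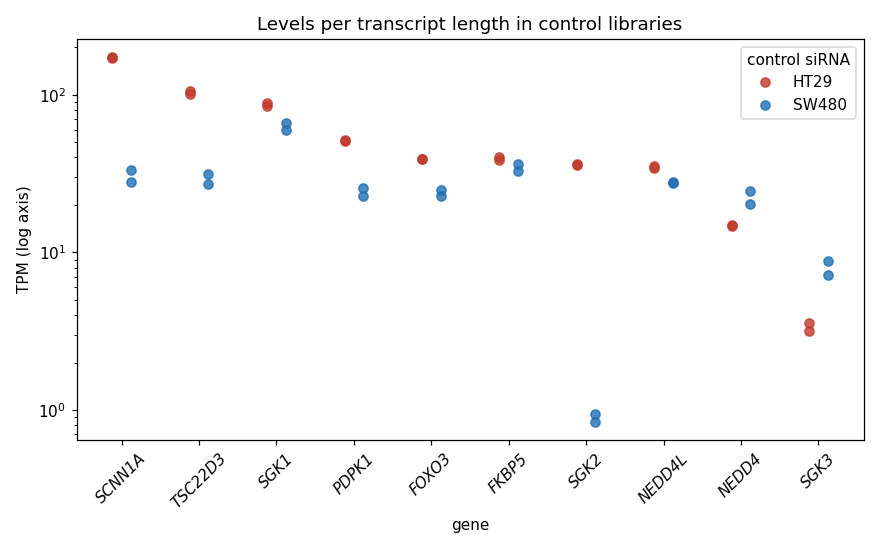
TPM (log axis) of each member in the siCon libraries of HT29 (red) and SW480 (blue), ordered by the HT29 level, with 1 point per library. SCNN1A and TSC22D3 lead in HT29 at 172 and 103 TPM, SGK1 leads in SW480 at 62.5 TPM, and SGK2 drops from 36.1 to 0.895 TPM.

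In TPM, the order in HT29 siCon ran from SCNN1A (172 TPM) through TSC22D3 (103 TPM), SGK1 (86.7 TPM) and PDPK1 (51.0 TPM) to FOXO3 and FKBP5 (39.2 and 39.1 TPM), which overlapped. SGK2 (36.1 TPM) and NEDD4L (35.0 TPM) followed, and NEDD4 (14.8 TPM) and SGK3 (3.38 TPM) were lowest. In SW480 siCon, SGK1 (62.5 TPM) led. FKBP5, SCNN1A, TSC22D3 and NEDD4L lay between 34.6 and 27.9 TPM and each overlapped with the next, and PDPK1, FOXO3 and NEDD4 lay between 24.0 and 22.3 TPM in the same way. SGK3 was at 7.96 TPM and SGK2 at 0.895 TPM. With siPrdx2, SGK1 was below SCNN1A and TSC22D3 in HT29 at 65.0 TPM and above all other members in SW480 at 107 TPM.

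The profile of SGK1 over the 8 libraries was compared with 11181 genes of at least 5 CPM on average, as the root mean square of the difference in log2 CPM after centring each gene on its mean. The closest were RHOD (0.131), DGCR14 (0.147), ZNF117 (0.155), MYD88 (0.164) and ASIC1 (0.166). RHOD was at 14.4, 15.2, 12.5 and 11.2 CPM in HT29 (siCon, then siPrdx2) and at 10.1, 11.9, 15.4 and 17.0 CPM in SW480. MYD88, the adaptor of Toll-like receptors, was at 71.2, 66.6, 62.1 and 65.8 CPM in HT29 and at 48.3, 46.2, 72.8 and 71.0 CPM in SW480. These genes were lower with siPrdx2 in HT29 and higher in SW480, as SGK1 was, although the HT29 differences of MYD88 were small. Of the members with enough counts, FKBP5 was the closest (0.315, rank 1413) and TSC22D3 the farthest (1.21, rank 10388). These distances describe 8 libraries that fall into 4 groups, and they carry no test.

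**Figure D5:**
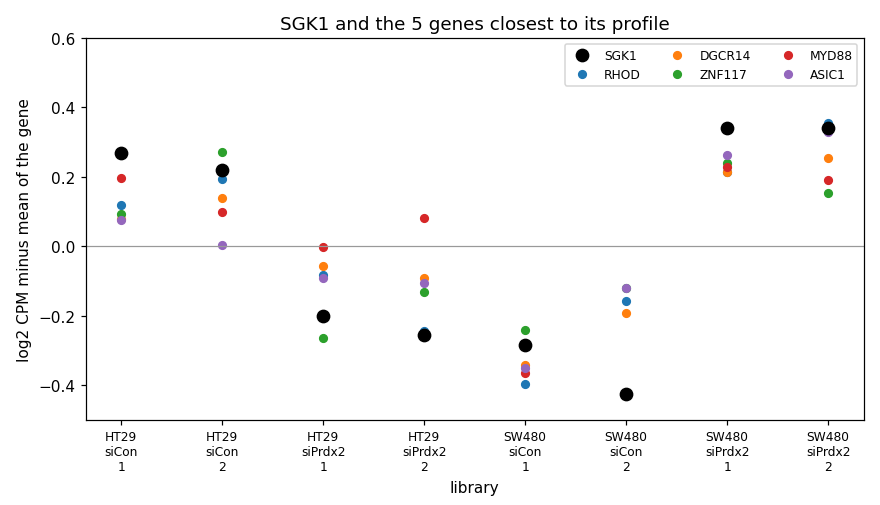
Log2 CPM minus the gene's own mean (y axis) in each of the 8 libraries (x axis) for SGK1 (large black points) and the 5 genes with the closest profile. SGK1 runs from 0.34 in both SW480 siPrdx2 libraries to -0.43 in SW480 siCon replicate 2, and RHOD from 0.36 to -0.40.

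Markers of cell state moved in the same contrasts. In HT29, KRT20 rose by 0.39 ± 0.03 and CDX2 by 0.58 ± 0.14 on the log2 scale, while KRT18 changed by -0.26 ± 0.01 and KRT8 by -0.14 ± 0.01 (SE, adjusted p between 1.13e-11 and 0.00668, edgeR), and the other 3 of the 7 epithelial markers did not pass. In SW480, KRT18 changed by -0.37 ± 0.06 (SE, adjusted p = 0.021) and VIM by -0.40 ± 0.09 (SE, adjusted p = 0.0472). The summed level of the mesenchymal markers was 629 to 805 TPM in SW480 and 1.32 to 2.19 TPM in HT29. Their part in the values of the SGK genes was not tested.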

How the data were processed

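mRNA was sequenced from 8 libraries, 2 each of HT29 and SW480 cells with control siRNA or PRDX2 siRNA, grouped by the sample labels. According to the methods, the authors built libraries with a TruSeq kit that does not mark strand, mapped reads from both fragment ends with MapSplice (genome hg19) and ran RSEM on refGene genes (described for HT29). The authors deposited for each library an expected count and a TPM value for each of 25192 genes. The deposited TPM values are scaled by transcript length to the same total in each library, so they allow levels of different genes to be set side by side. The deposited FPKM values were not used.

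Expected counts were rounded and tested with edgeR 4.0.16 (TMM, glmQLFit and glmQLFTest, a filter of 10 or more counts in 2 or more libraries, Benjamini-Hochberg over all genes tested, threshold 0.05) in 3 fits of 4 libraries each (siPrdx2 against siCon in each line, and HT29 against SW480 with siCon). The difference of the effect between lines was the interaction in a fit of all 8 libraries. All 10 members passed the count filter in HT29, in the fit of 8 libraries and between the control libraries, and 9 of 10 passed in SW480. Each SE is the log2 fold change divided by the square root of the F statistic. CPM values use TMM factors within a line, except those of genes compared with SGK1, which use factors over all 8 libraries. The members and gene lists were chosen with earlier results of these data known, so no p is adjusted over a list alone. The genes named are the members, PRDX2, for each list at most 4 called genes per comparison with the smallest adjusted p, and the 5 genes closest to SGK1. NR3C1, NR3C2, SCNN1B, SCNN1G, SCNN1D, WWP1, CDC37, CD14, C8orf44-SGK3, FOXO3B, KRT20, VIM, PTPRC, CD3E and single values in a second line were named after their values were seen. A gene of the channel list that the rule takes is not reported here.

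The alternatives were RLE normalization, no filter, DESeq2 1.42.0, all 8 libraries, a replicate block, limma 3.58.1 on log2 TPM with a pseudocount of 1 or 0.1, a loess correction on transcript GC content (span 0.5) with and without the block, and leaving out each library. Sums with C8orf44-SGK3 and FOXO3B were added after seeing the data. Transcript GC content was found for 89.2% of the gene symbols. Coordinates come from GRCh37, the assembly that hg19 names, and promoters from RefSeq on GRCh38.p14, which were never mixed. The fits were tested on simulated counts. Counting floors cover counting error only.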

Additional observations from a re-analysis of the deposited data

Results flagged for a closer look

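The effect of siPrdx2 on SGK1 had opposite signs in the lines. Both siPrdx2 libraries lay below both controls in HT29 and above both in SW480, and the effect in HT29 minus that in SW480 was -1.17 on the log2 scale. The difference was not tested, because SGK1 was selected on it. Of the 9 other members, none had a difference between lines that passed the test with edgeR.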

How the results depend on the processing

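Deviations of same-numbered libraries correlated at 0.046 in HT29 and 0.081 in SW480, so no pairing by replicate number was seen. These values cannot exclude a pairing. The HT29 duplicates differed little beyond counting error, and the SW480 siCon duplicates differed with GC content. With a replicate block, 2889 genes were called in HT29 (2279 without), 1727 in SW480 (466 without) and 196 between the lines (166 without), and 5, 3, 0 and 9 of the members in HT29, in SW480, between the lines and between the control libraries, against 4, 0, 0 and 9. The member added in HT29 was SCNN1A (-0.10, adjusted p = 0.0215). With the GC correction and the replicate block, 2372 genes and 4 members were called in SW480, and 914 genes and 3 members between the lines.

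In HT29, DESeq2 called 1029 genes, and the fit of all 8 libraries called 185 genes and 1 member. In SW480, the fit of all 8 libraries called 2415 genes and 3 members, SGK2 with its counts near the floor among them. The GC correction called 2278 genes and 3 members there, and DESeq2 called 1 member. Limma called 214 genes on log2(TPM + 1) and 177 on log2(TPM + 0.1). Between the lines, the GC correction called 967 genes and 3 members, DESeq2 302 genes and 1 member, no filter 267 genes and 1 member, and limma 103 and 43 genes. Leaving out 1 library gave 87 to 7364 genes and 0 to 4 members in SW480, 6 to 5237 genes and 0 to 4 members between the lines, and 5 to 9 members between the control libraries. The highest counts came without SW480 siCon replicate 2 and the lowest in SW480 without siPrdx2 replicate 2, and the lone library left in a group was assumed to vary like the others.

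Some effects that did not pass the test in the report changed sign. In HT29, SGK2 was 0.005 with limma and SGK3 was between -0.53 without siPrdx2 replicate 2 and 0.64 without siPrdx2 replicate 1. In SW480, NEDD4 was 0.052 and 0.054 with limma, 0.18 with the GC correction, with or without the block, and 0.083 and -0.16 without siCon replicate 1 and 2, and TSC22D3 was 0.005 and -0.21 without these. Between the lines, NEDD4 was -0.11 with the GC correction, with or without the block, and -0.031 and 0.20 without SW480 siCon replicate 1 and 2. PDPK1 there was -0.028 and -0.033 with limma, -0.095 without SW480 siCon replicate 2, 0.097 without replicate 1 and -0.021 without SW480 siPrdx2 replicate 2, and FKBP5 was 0.026 without SW480 siCon replicate 2. The cause was not tested for any of these. With 2 libraries a group, effects the size of those of NEDD4, FKBP5 or SGK2 were not detectable beyond the intervals given, and SGK2 in SW480 was limited by counts at the floor.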
